A study of Papio anubis with 2 samples.

Results

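The regions described here are the H3K4me3 peaks listed on macaque chromosomes 16, 19 and 20, the counterparts of human chromosomes 17, 19 and 16. They were taken from the authors' peak list by chromosome name alone, but the chromosomes were chosen with earlier results of these data known. They number 915 of 9910 listed peaks (9.23%), with 335 on chromosome 16, 423 on chromosome 19 and 157 on chromosome 20. Chromatin immunoprecipitation with sequencing was applied to cells of the subventricular zone, a neurogenic layer along the lateral ventricles, from the brain of an adult olive baboon (Papio anubis). Per the labels' protocols, dissociated cells were captured on beads with antibodies to glial and progenitor markers (GFAP, Vimentin, Nestin) or to markers of young neurons (Doublecortin, PSA-NCAM), and the labels do not say which marker was used for these libraries. The H3K4me3 library and a total histone H3 library, meant for normalisation, were made from such cells, with 1 library per antibody. Values of the total H3 library were not used here. No treatment or genotype is labelled.

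H3K4me3, histone H3 trimethylated on lysine 4, is laid down by the SET1 and MLL (KMT2) methyltransferase complexes around the starts of genes that are active or poised, most often at CpG-rich promoters. Because promoters carry the mark, gene-rich chromosomes are commonly dense in it. Human chromosome 19 is known for its gene density and for long tandem arrays of zinc finger genes, whose products are mostly transcriptional repressors. Human chromosome 17 carries, among others, the genes of the astrocyte filament GFAP, the progenitor factor SOX9 and FOXJ1, which drives the ciliated ependymal programme. Human chromosome 16 carries a cluster of IRX homeobox genes and the zinc finger gene SALL1, which act in development.

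Positions are on the rhesus macaque assembly rheMac2, named with a false discovery rate of 0.01 in the name of the deposited list, and are counted from 1. The list gives a start and an end for each peak, and no height, score or p-value. The number of reads behind the list is unknown, so a place without a peak may still carry the mark. Baboon reads were placed on a macaque assembly, and reads from diverged sequence can be lost. No annotation or genome of rheMac2 was used, so regions are given without the gene, exon or intron there, no marker gene of the captured cells could be looked up, and no sequence is printed. Peaks on 1 chromosome of 1 library are not replicates. The intervals below cover counting error over peaks, groups or windows, are too narrow where these are not independent, and say nothing about variation between animals.

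The label gene-rich was checked against the RefSeq table of the baboon assembly Panubis1.0, used for gene names and whole-chromosome gene counts only. In that table the fixed landmark genes of human chromosome 17, GFAP, SOX9, FOXJ1, STAT3, NF1, ERBB2, HOXB4 and KAT2A, all lay on baboon chromosome 17 (8 of 8). The landmarks of human chromosome 19, among them APOE, NOTCH3, DNMT1 and the H3K4 methyltransferase gene KMT2B, all lay on baboon chromosome 20 (8 of 8). Those of human chromosome 16, among them SALL1, IRX3, CREBBP and CTCF, lay on baboon chromosome 18 (8 of the 8 found in the table, of 9 looked for). Baboon and macaque numbers therefore differ, and the macaque numbers are used below.

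By this table all 3 chromosomes were gene-rich for their length, in that each held a larger share of genes than of length. Genes per length were not computed for the other autosomes singly, so whether some were as gene-rich was not tested. The counterpart of chromosome 16 held 1160 protein-coding genes, 6.05% of the 19158 placed on baboon autosomes, while chromosome 16 made up 2.86% of the autosomal length in the peak list. The counterpart of chromosome 19 held 1322 such genes, 6.90%, against 2.38% of the length. It also held 166 genes whose symbols start with ZNF, 44.3% of those on autosomes, against 8 on the counterpart of chromosome 16 and 27 on that of chromosome 20. The counterpart of chromosome 20 held 812 protein-coding genes, 4.24%, against 3.26% of the length, so its excess of genes was the smallest of the 3.

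Neighbouring peaks no more than 10 kb apart were linked into 1 group, since several short intervals can stand for 1 marked region. A group may be a single isolated peak. Chromosome 19 was the densest of all 20 autosomes in linked groups, chromosome 16 had the next highest value, and chromosome 20 was not dense. Chromosome 16 held 178 groups, or 2.30 per Mb (exact 95% Poisson interval 1.98 to 2.67). Chromosome 19 held 215 groups, or 3.34 per Mb (2.91 to 3.82). Chromosome 20 held 121 groups, or 1.37 per Mb (1.14 to 1.64). The 17 other autosomes ranged from 0.965 groups per Mb on chromosome 18 to 2.04 on chromosome 7, with a median of 1.63. Chromosome 20 thus lay inside the range of the other autosomes and below their median.

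Each chromosome was then set against the other autosomes pooled (1.61 groups per Mb), with exact two-sided binomial tests adjusted by the Benjamini-Hochberg method over the 20 autosomes. The density of groups was 2.07 times that of the pool on chromosome 19 (exact 95% interval 1.80 to 2.38; exact adjusted p = 1.2e-19). It was 1.43 times the pool on chromosome 16 (1.22 to 1.66; exact adjusted p = 4.9e-05). On chromosome 20 the ratio was 0.851 (0.704 to 1.02; exact adjusted p = 0.14), which did not pass the threshold of 0.05. Of the 20 autosomes, 30.0% were called higher and 15.0% lower by the same test. Among the 17 others the shares were 23.5% and 17.6%. A call as such is therefore common. Chromosome 19 lay clear of the highest of the 17 others, chromosome 7 at 2.04 groups per Mb (1.83 to 2.27). The interval of chromosome 16 overlaps that of chromosome 7.

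The value for chromosome 20 depended on how close peaks were linked. It was 0.770 (exact adjusted p = 0.0057) at a gap of 2 kb and 0.815 (exact adjusted p = 0.048) at 5 kb, both past the threshold, and 0.911 (exact adjusted p = 0.48) at 50 kb. When the longest stretch without a peak was taken out of the length of every autosome, a setting chosen after the data were seen, the ratio was 0.971 (0.804 to 1.16; exact adjusted p = 0.87). In that setting chromosome 19 rose to 2.31 times the pool and chromosome 16 to 1.46 times.

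**Figure D1:**
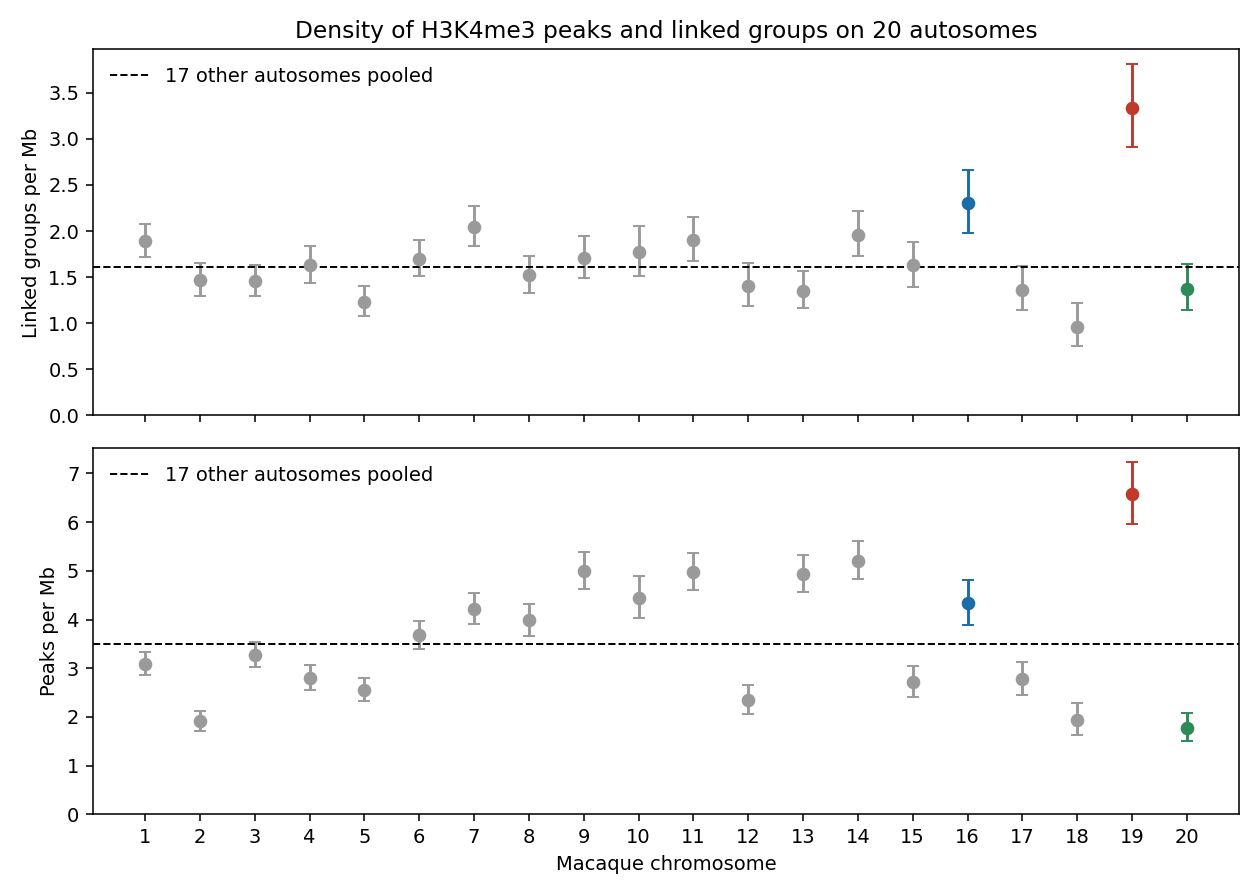
Linked groups per Mb (upper) and listed peaks per Mb (lower) on each of 20 autosomes, with exact 95% Poisson intervals as bars; the dashed line is the pooled density of the 17 other autosomes. Chromosome 19 (red) is highest in both, chromosome 16 (blue) is next by groups but seventh by peaks, and chromosome 20 (green) is lowest by peaks.

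Counted as listed peaks, the order changed. Chromosome 19 had 6.57 peaks per Mb (5.96 to 7.23), above the other autosomes, which ranged from 1.91 on chromosome 2 to 5.20 on chromosome 14. Chromosome 16 had 4.33 peaks per Mb (3.88 to 4.82), inside that range and seventh of 20. Chromosome 20 had 1.78 peaks per Mb (1.51 to 2.08), lowest of the 20, though chromosomes 2 and 18 were within its interval. Against the pool of 3.51 peaks per Mb the ratios were 1.23 for chromosome 16 (1.10 to 1.38; exact adjusted p = 0.00028), 1.87 for chromosome 19 (1.69 to 2.07; exact adjusted p = 1.2e-29) and 0.508 for chromosome 20 (0.431 to 0.595; exact adjusted p = 3.2e-20). By peaks, 45.0% of autosomes were called higher and 45.0% lower, so at the level of peaks a call says little about any of them. For chromosome 20 the deficit shrank as neighbouring peaks were merged, to 0.770 times the pool at a merging gap of 2 kb, which moved the value by over 1.5 times. Merging at 2 kb gives the same count as linking groups at 2 kb.

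The difference between both counts lay in the number of peaks per group. On chromosome 20 there were 1.30 peaks per group, the lowest of the 20 autosomes by a small margin over chromosome 2, with 1.88 on chromosome 16 and 1.97 on chromosome 19. The 17 others ranged from 1.30 to 3.64, with a median of 2.08. Chromosomes 16 and 19 were thus dense through many groups rather than through many peaks in each.

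Groups were sorted by size into isolated peaks, pairs, groups of 3 to 9 and groups of 10 or more, and the 3 chromosomes differed most in isolated peaks and in groups of 3 to 9. Isolated peaks made up 65.6% of the peaks on chromosome 20 (95% Wilson interval 57.9% to 72.6%; 103 peaks), above each of the 17 others, whose highest was 60.4% on chromosome 2. On chromosome 16 the share was 38.8% (33.7% to 44.1%; 130 peaks) and on chromosome 19 it was 37.1% (32.6% to 41.8%; 157 peaks), both near the median of 35.1% over the 17 others. Chromosome 20 kept the highest share of isolated peaks at linking gaps of 2, 5, 20 and 50 kb, but 2 other autosomes were above it once peaks were merged at 1 kb. Per Mb, isolated peaks numbered 2.44 on chromosome 19 and 1.68 on chromosome 16, against at most 1.42 on the 17 others, and 1.17 on chromosome 20.

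As a share of the peaks, pairs did not set the 3 apart. They held 17.3% of the peaks on chromosome 16, 14.7% on chromosome 19 and 19.1% on chromosome 20, inside the range of 8.11% to 24.4% over the 17 others. Per Mb, chromosome 19 held 0.481 pairs, above the 17 others (0.122 to 0.400), with 0.375 on chromosome 16 and 0.170 on chromosome 20. The median span of a pair was 0.61 kb on chromosome 16 (29 pairs), 0.67 kb on chromosome 19 (31 pairs) and 0.69 kb on chromosome 20 (15 pairs). The upper quartile on chromosome 19, 3.04 kb, exceeded those of the 17 others, whose highest was 1.80 kb.

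Groups of 3 to 9 peaks took opposite ends of the scale on chromosomes 19 and 20. They held 24.6% of the peaks on chromosome 19 (20.7% to 28.9%), in 22 groups, above the highest of the 17 others (20.1%, chromosome 10). On chromosome 20 there was 1 such group, a run of 3 peaks at 66350802 to 66352031, and it held 1.91% of the peaks (0.652% to 5.47%), below the lowest of the 17 others (4%, chromosome 12). On chromosome 16 there were 14, with 17.3% of the peaks (13.6% to 21.7%). Their median span was 6.02 kb on chromosome 19 (quartiles 3.34 and 8.28 kb) and 3.04 kb on chromosome 16 (1.03 and 6.93 kb). These ranks depended on the linking. At a gap of 2 kb the share on chromosome 20 was 14.6%, with 13 of the 17 others above it, and at 50 kb 2 of the others were above chromosome 19 (21.0%). After merging at 1 kb, 1 of the others was above chromosome 19 (22.7%).

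Groups of 10 or more peaks were few on all 3. They held 26.6% of the peaks on chromosome 16 (22.1% to 31.5%), 23.6% on chromosome 19 (19.8% to 27.9%) and 13.4% on chromosome 20 (8.92% to 19.6%). The other autosomes ranged from 0% on chromosome 2 to 63.1% on chromosome 13, with a median of 36.4%. Of the 17 others, 14 had a higher share than chromosome 16, 15 a higher share than chromosome 19 and 16 a higher share than chromosome 20. Per Mb, however, chromosome 16 held 0.0646 and chromosome 19 0.0777 such groups, against a median of 0.0358 over the 17 others, so on these 2 it was their share of the peaks and not their number per length that was low. On chromosome 20 both were low, with 0.0227 such groups per Mb and 14 of the 17 others above it.

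**Figure D2:**
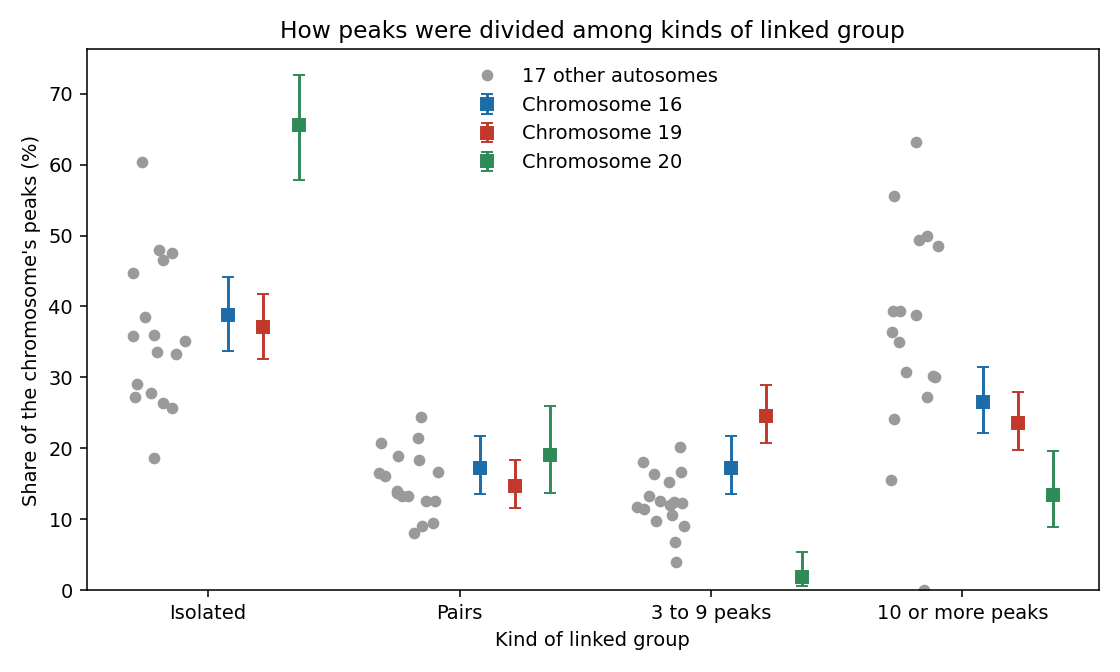
Share of each chromosome's peaks (%) in isolated peaks, pairs, groups of 3 to 9 and groups of 10 or more; grey points are the 17 other autosomes, squares are chromosomes 16 (blue), 19 (red) and 20 (green) with 95% Wilson intervals. Chromosome 20 has the highest share of isolated peaks (65.6%) and the lowest in groups of 3 to 9 (1.91%), where chromosome 19 is highest (24.6%).

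The 12 groups of 10 or more were compact and unevenly filled. On chromosome 16 a group of 21 peaks lay at 26165302 to 26179991. It spanned 14.7 kb at 1.43 peaks per kb, the densest of the 12. A group of 26 peaks at 31458662 to 31481831 spanned 23.2 kb. Groups of 17 peaks at 44172902 to 44187971 and of 12 peaks at 44283862 to 44299951 were near neighbours. Between them lay a group of 6 peaks, 28.9 kb after the former, and an isolated peak 43.9 kb before the latter. The fifth, of 13 peaks, lay at 47913522 to 47933731 and was the loosest of the 12, with 0.643 peaks per kb and a median distance of 1250 bp between neighbouring centres.

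On chromosome 19 the largest group held 36 peaks at 49627242 to 49677011 and spanned 49.8 kb. It alone held 8.51% of the peaks of the chromosome. A group of 13 peaks lay before it at 49433262 to 49447251, and one of 12 peaks lay further along at 50802142 to 50812311. A group of 18 peaks at 33628562 to 33654831 spanned 26.3 kb, with a median centre distance of 1320 bp. The last, of 21 peaks, lay at 60852482 to 60880531, at 94.5% of the length of the chromosome. Chromosome 20 held a group of 10 peaks at 30443342 to 30452531 and one of 11 at 65254922 to 65267971, with spans of 9.19 and 13.1 kb.

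The listed intervals covered between 9.65% and 22.0% of the span of these 12 groups. When gaps of up to 1 kb were closed, each group broke into 2 to 10 runs, and the widest run was 7.51 kb, at 49637742 to 49645251 inside the largest group of chromosome 19 (14 peaks). The widest on chromosome 16 was 5.45 kb, at 44292702 to 44298151 (9 peaks), and that on chromosome 20 was 2.01 kb, at 30443342 to 30445351 (5 peaks). Runs of at least 2 kb were 2.73% of the joined intervals on chromosome 16 (6 of 220; 1.26% to 5.82%), 2.37% on chromosome 19 (7 of 295; 1.15% to 4.82%) and 0.746% on chromosome 20 (1 of 134; 0.132% to 4.11%). The pooled share on the other autosomes was 5.01% (4.45% to 5.64%). Singly, the 17 others ranged from 0.340% on chromosome 2 to 9.28% on chromosome 9, so all 3 lay inside that range. Of the 17, 4 were below chromosome 16, 3 below chromosome 19 and 1 below chromosome 20. Chromosome 20 had the narrowest widest run of all 20 autosomes, and the highest among the 17 others was 21.8 kb, on chromosome 8.

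**Figure D3:**
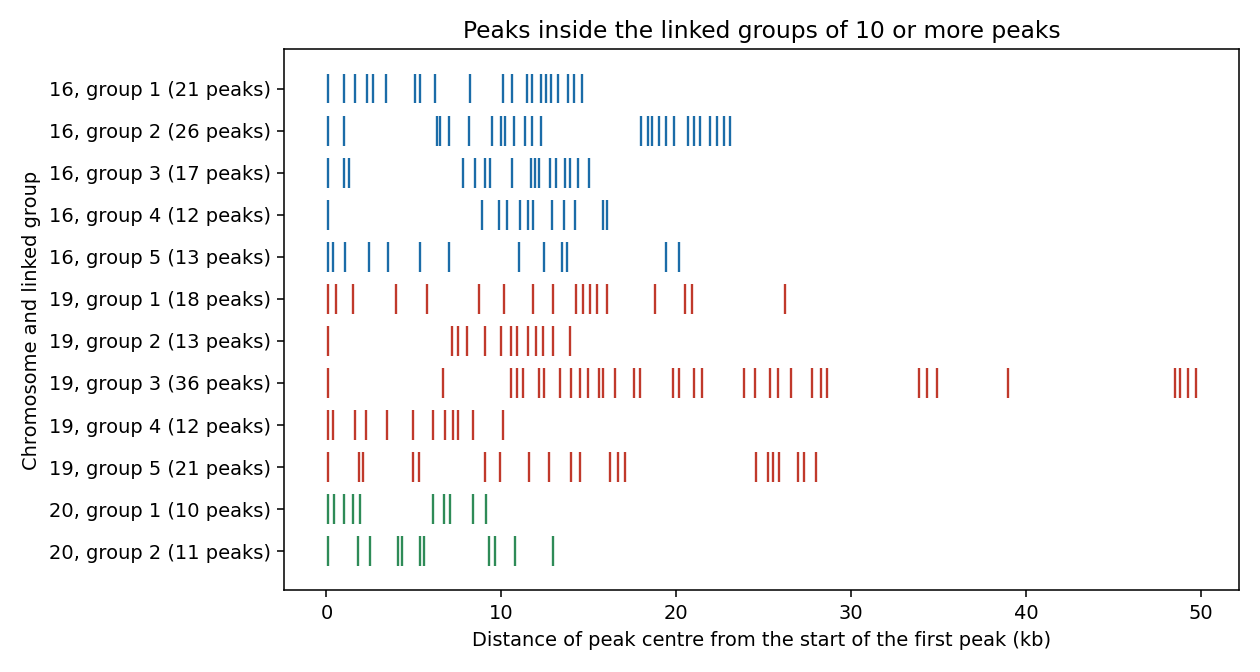
Positions of peak centres inside each of the 12 linked groups of 10 or more peaks, as distance in kb from the start of the first peak; each line is 1 peak, and rows are ordered along chromosomes 16 (blue), 19 (red) and 20 (green). Runs of closely set peaks alternate with gaps of several kb, as in the group of 36 peaks on chromosome 19 that spans 49.8 kb.

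Close neighbours were spaced much alike on the 3 chromosomes. Among neighbours no more than 1 kb apart, centres were separated by a median of 400 bp on chromosome 16 (quartiles 280 and 640 bp, 115 neighbours). It was 460 bp on chromosome 19 (320 and 660 bp, 128 neighbours) and 400 bp on chromosome 20 (290 and 570 bp, 23 neighbours). The medians of the 17 others ran from 360 to 500 bp. The limit of 1 kb bounds these distances on every chromosome, so their likeness says little. What differed was how many neighbours were that close. They were 34.4% of neighbouring pairs on chromosome 16, 30.3% on chromosome 19 and 14.7% on chromosome 20, the last below the lowest of the 17 others (18.6%, chromosome 2).

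Widths carried little information, because most intervals had the common width of 150 bp. Wider peaks were 5 on chromosome 16 (1.49%), 5 on chromosome 19 (1.18%) and 4 on chromosome 20 (2.55%). The pooled share on the other autosomes was 1.42%, with a range of 0.382% to 2.80% over the 17, so these counts did not set the 3 apart. On chromosome 16 the widest, of 370 bp at 69666522 to 69666891, was isolated, with 1839 kb to the previous peak and 775 kb to the next. Those of 270 bp at 25809642 to 25809911 and 250 bp at 32031102 to 32031351 lay in groups of 7 and 2. On chromosome 19 the 3 widest were 310 bp at 45274682 to 45274991, 270 bp at 23790162 to 23790431 and 270 bp at 42321002 to 42321271, in groups of 2, 7 and 6 peaks. On chromosome 20, peaks of 290 bp lay at 27963942 to 27964231, isolated, and at 65256562 to 65256851, inside the group of 11. The third, of 250 bp at 195742 to 195991, was the first peak of the chromosome. Wide peaks thus occurred both alone and in groups.

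Along its length, chromosome 16 showed peaks in most of its windows of 1 Mb. Of its 78 windows of 1 Mb, 63 held a peak (80.8%; 70.7% to 88.0%), the highest share of the 20 autosomes, though 79.5% of windows on chromosome 1 did so and the intervals overlap. When the windows were shifted by 500 kb the share on chromosome 16 was 78.2%. The 17 others were not counted on that grid, so its rank there is unknown. With windows of 500 kb the share was higher on chromosome 19 (62.0%) than on chromosome 16 (56.8%). The median window of 1 Mb held 2 groups. On the 17 others, stretches of over 1 Mb between groups made up 51.3% to 77.4% of the length, against 45.9% on chromosome 16. Its 3 longest stretches without a peak were 4.14 Mb at 9337752 to 13474401, 3.48 Mb at 35748132 to 39227381 and 2.72 Mb at 73979192 to 76695401. The longest was inside the range of the longest stretches of the 17 others, 3.48 to 7.83 Mb. The stretches from 20 to 35 Mb and from 40 to 55 Mb, bounds chosen after the values were seen, held 28.7% and 29.8% of its groups, each in 19.4% of its length.

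The windows of chromosome 16 with the most peaks and with the most groups were different ones. By peaks they were 44 to 45 Mb with 37, 31 to 32 Mb with 32 and 26 to 27 Mb with 23, each holding 1 or 2 of the groups of 10 or more. By groups they were 7 to 8 Mb with 10, 52 to 53 Mb with 9 and 43 to 44 Mb with 7, which held no group of 10 or more. The window at 7 to 8 Mb held 9 isolated peaks and 1 group of 3 peaks. The final 25% of its length was sparse, with 14.6% of the groups, below the same part of the 17 others (15.5% to 27.5%).

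Chromosome 19 was split by a long empty stretch. No peak lay between 23884472 and 32648341, 8.76 Mb or 13.6% of its length, longer than the longest such stretch on any of the 17 others. The other 2 longest, of 2.53 Mb at 34164912 to 36690761 and of 3.35 Mb at 36695792 to 40045441, were parted only by a group of 8 peaks spanning 5.03 kb. Between 25 and 40 Mb there were 12 groups in all. Before the longest stretch there were 76 groups, 3.18 per Mb (2.51 to 3.98), and after it 139, or 4.38 per Mb (3.68 to 5.17). Both sides were denser than the pooled other autosomes. After it came all 5 groups of 10 or more and 17 of the 22 groups of 3 to 9, so peaks per Mb differed more, at 4.35 before and 10.1 after.

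Outside that gap the groups of chromosome 19 were close together. The median gap between neighbouring groups was 117 kb, against 211 to 489 kb on the 17 others, 223 kb on chromosome 16 and 327 kb on chromosome 20. Of its 65 windows, 50 held a peak (76.9%; 65.4% to 85.5%) and 17 held at least 5 groups (26.2%), a share that was at most 10% on the 17 others. The fullest window, 49 to 50 Mb, held 86 peaks in 16 groups, of which 6 were isolated peaks, 3 pairs, 5 groups of 3 to 9 and 2 groups of 10 or more. It held 20.3% of the peaks of the chromosome and 7.44% of its groups. No window of 1 Mb on the 17 others held more than 15 groups. The window at 42 to 43 Mb held 32 peaks in 10 groups, 5 of them of 3 to 9 peaks. That at 60 to 61 Mb held 25 peaks, and that at 63 to 64 Mb held 13 groups, 11 of them isolated peaks. Without the fullest window of each autosome, chromosome 19 still had 1.99 times the groups per Mb of the pool (1.71 to 2.29; exact adjusted p = 2.5e-16).

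The far end of chromosome 19 was full as well. Its last 5 Mb held 23 groups, or 4.6 per Mb, above the 0.6 to 3.6 per Mb at that end of the 17 others, while its first 5 Mb held 12. The final 25% of its length held 37.2% of its groups and 46.1% of its peaks.

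**Figure D4:**
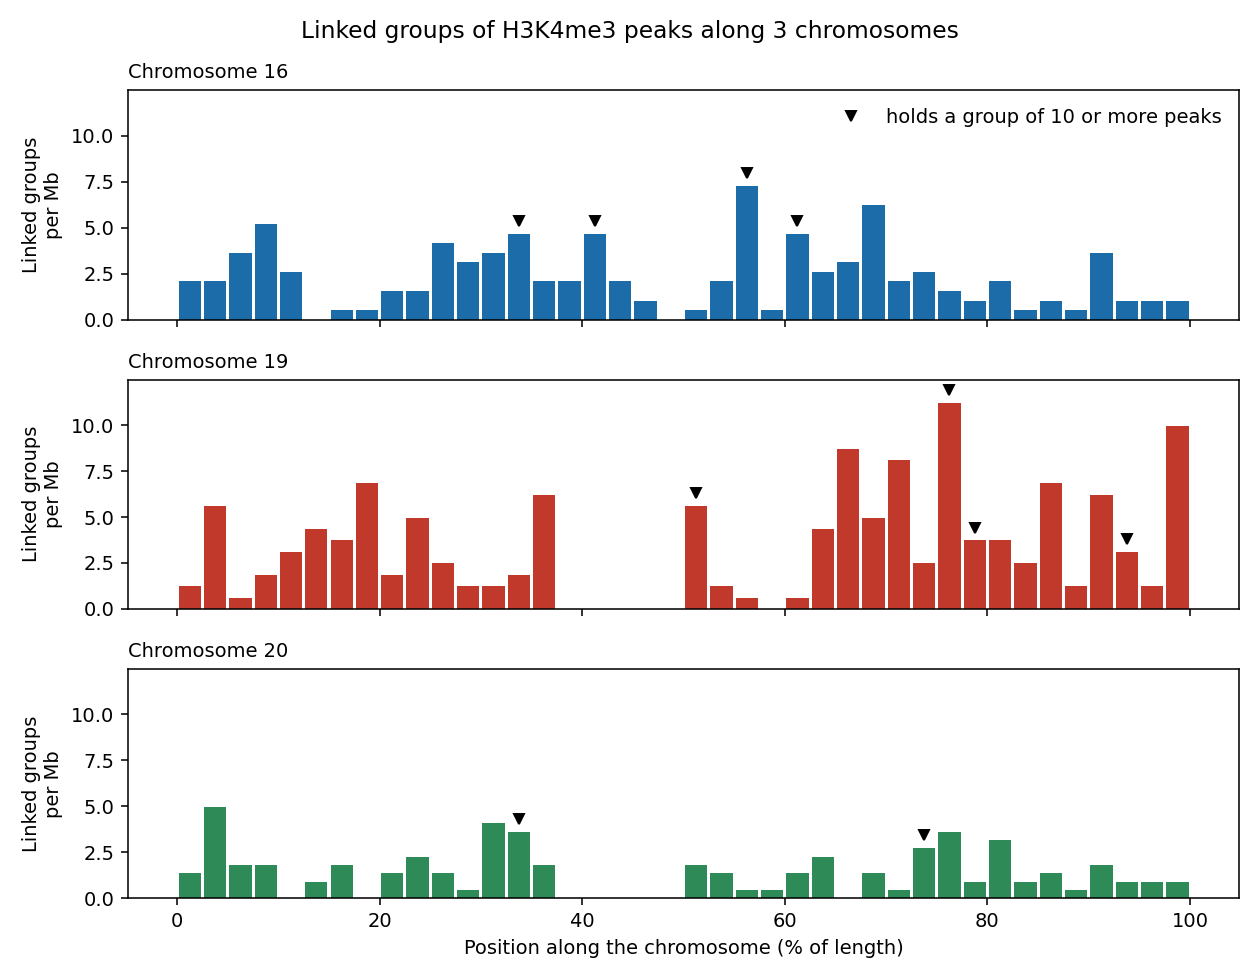
Linked groups per Mb along chromosomes 16, 19 and 20 in steps of 2.5% of each chromosome's length; triangles mark steps that hold a group of 10 or more peaks. Chromosome 19 is empty through its longest stretch (8.76 Mb) and fullest beyond it. Chromosome 16 holds groups in most steps, with fewer toward its far end. Chromosome 20 holds an empty stretch of 13.6 Mb, with 1.97 groups per Mb before it and 1.38 after it.

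Chromosome 20 held the longest empty stretch on any autosome, 13.6 Mb at 31037152 to 44638081, or 15.4% of its length. Outside that stretch it held 1.62 groups per Mb, against a median of 1.67 for the 17 others without their own longest stretches. The next were 3.26 Mb at 8785412 to 12043141 and 3.11 Mb at 56906772 to 60013761. Of its 89 windows, 59 held a peak (66.3%; 56.0% to 75.3%), inside the range of 54.1% to 79.5% over the 17 others. Centromeres and assembly gaps were not examined, and their part in the empty stretches of chromosomes 19 and 20 was not tested. Before the longest stretch there were 61 groups, 1.97 per Mb (1.50 to 2.52), and after it 60, or 1.38 per Mb (1.05 to 1.77). These intervals overlap, and the pooled density of the other autosomes, 1.61, lies inside both.

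Judged by its fullest windows alone, chromosome 20 had its groups about as unevenly spread as other autosomes. The fullest 10% of its windows held 35.5% of its groups, against 27.5% to 36.9% on the 17 others, with a median of 34.1%. By other measures it lay nearer the end of their range. Stretches of over 1 Mb between groups made up 69.8% of its length, with 1 of the 17 others above it. Its first 5 Mb held 16 groups, or 3.2 per Mb, with 2 of the 17 others above it, and its last 5 Mb held 4. Those 16 were 13.2% of its groups, against at most 12.7% in the first 5 Mb of the 17 others. The fullest windows by groups were 2 to 3 Mb and 30 to 31 Mb with 7 each, then 27 to 28 Mb and 66 to 67 Mb with 6 each. The 6 groups at 27 to 28 Mb were all isolated peaks. By peaks the fullest were 30 to 31 Mb with 17, 65 to 66 Mb with 14 and 2 to 3 Mb with 9. The window at 30 to 31 Mb, which holds one of the 2 groups of 10 or more, ends shortly before the empty stretch, which begins at 31037152. Its fullest window of 17 peaks was below the median of 81 for the fullest window of the 17 others.

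Counted as linked groups per protein-coding gene, the 3 chromosomes came close together, which did not hold for listed peaks or for all genes. There were 15.3 linked groups per 100 protein-coding genes on chromosome 16 (exact Poisson interval 13.2 to 17.8), 16.3 on chromosome 19 (14.2 to 18.6) and 14.9 on chromosome 20 (12.4 to 17.8). Their intervals overlap, although their densities per Mb ran from 1.37 to 3.34. The other autosomes pooled had 25.2 groups per 100 genes (24.4 to 26.0), above the interval of each of the 3. Groups per gene were computed for the other autosomes only as a pool, with no spread over them. Whether any single autosome among them had as few groups per gene as these 3 was not tested. Linked at 2 kb, chromosomes 16, 19 and 20 had 17.1, 19.5 and 15.6 groups per 100 protein-coding genes. Linked at 50 kb, they had 13.1, 12.2 and 13.7, so their order was reversed. Their intervals overlap at both gaps. Stated as shares of the autosomal total, chromosome 16 held 3.95% of the groups and 3.49% of the peaks, chromosome 19 4.77% and 4.40%, and chromosome 20 2.68% and 1.63%, all below their shares of protein-coding genes.

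Gene counts came from the baboon assembly, groups from positions on a macaque one, and 1074 protein-coding genes without a chromosome were left out. The contrast depended on which genes were counted. With all genes of the table, noncoding ones and pseudogenes included, chromosome 19 had 12.8 groups per 100 genes against 13.0 on the other autosomes, a ratio of 0.988 where protein-coding genes alone gave 0.646. For chromosomes 16 and 20 the ratios were 0.796 and 0.720 with all genes, and 0.609 and 0.592 with protein-coding genes. The closeness of the 3 depended on it too. With all genes there were 10.3 groups per 100 genes on chromosome 16, and the interval of chromosome 19 (11.2 to 14.6) lay just above that of chromosome 20 (9.33; 7.74 to 11.1). Counted as listed peaks, there were 28.9 per 100 protein-coding genes on chromosome 16 (25.9 to 32.1), 32.0 on chromosome 19 (29.0 to 35.2) and 19.3 on chromosome 20 (16.4 to 22.6), so chromosome 20 was apart.

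**Figure D5:**
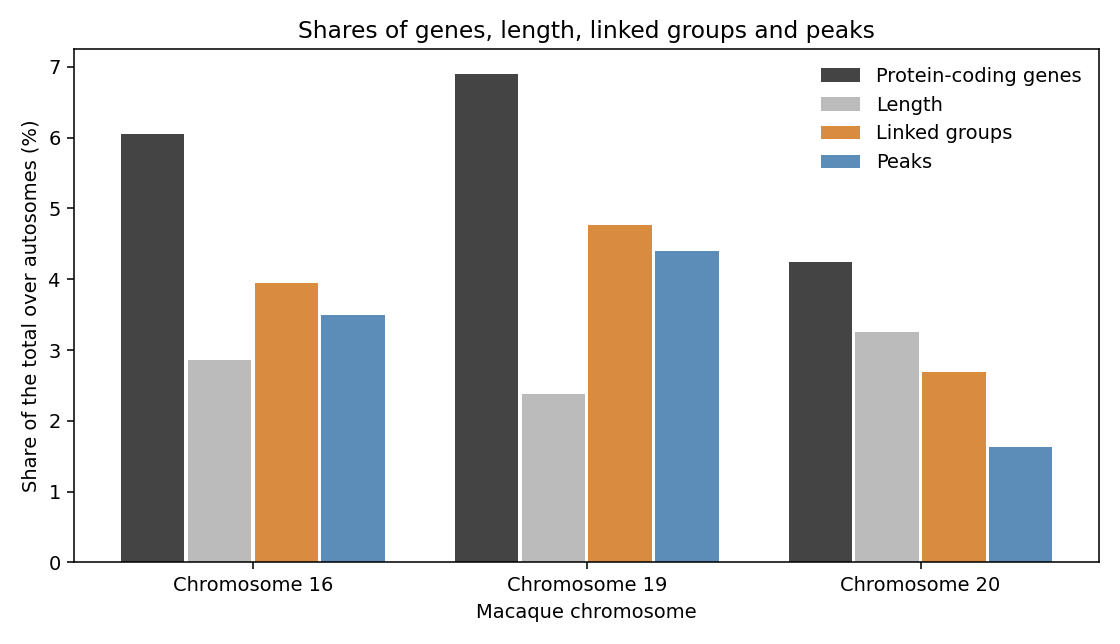
Share of the total over 20 autosomes (%) that chromosomes 16, 19 and 20 held of protein-coding genes (baboon table), length, linked groups and listed peaks. On all 3 the share of genes is the highest bar, and on chromosome 20 the shares of groups (2.68%) and peaks (1.63%) are below the share of length (3.26%).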

How the data were processed

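The deposited list, made by the authors, gives only the sequence, start and end of each H3K4me3 peak on rheMac2, at a false discovery rate of 0.01, per the file name. Bowtie 0.12.7 is named in the submitters' processing notes; the peak caller: not given in the sources used here. Starts were read as counted from 0 and are printed counted from 1. Chromosome length was the end of the last peak. Peaks were linked at gaps of up to 10 kb, and a window of 1 Mb took each peak or group by its start. Python 3.11.15, scipy 1.17.1 (exact binomial tests; Poisson, Clopper-Pearson and Wilson intervals at 95%) and statsmodels 0.14.6 (Benjamini-Hochberg adjustment) were used, and the steps were tested on simulated data. Each autosome was tested against the autosomes other than itself and chromosomes 16, 19 and 20.

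Named regions were, on each chromosome, every group of 10 or more peaks, the 3 windows with the most peaks and with the most groups, the 3 longest peak-free stretches and the 3 widest peaks, with ties. The other regions, the widest runs, segments, ends, the shares of isolated peaks, pairs and groups of 3 to 9, and the counts per gene were chosen after their values were seen. The chromosomes, rules and tests were chosen with earlier results of these data known. Alternatives covered linking, merging, length, reference autosomes, windows and large groups. Total H3, chromosome X and the unplaced sequence were not used here, and 1 planned landmark gene is not reported here.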

Additional observations from a re-analysis of the deposited data

How the results depend on the processing

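The ratios of group and peak density for chromosomes 16 and 19 kept their direction and stayed past the threshold in all 24 alternatives tried for each. Of these 24, 17 only left out 1 of the other autosomes from the pool, which can move a ratio little. By groups, those 17 gave 1.40 to 1.46 for chromosome 16 and 2.03 to 2.11 for chromosome 19. The ranges that follow are over all 24. For groups they ran from 1.37 to 1.46 and from 1.81 to 2.31, and for peaks from 1.19 to 1.47 and from 1.80 to 2.32. Chromosome 20 stayed below 1 in all 24 by groups (0.770 to 0.971) and by peaks (0.489 to 0.770). Linking at 2 kb and merging at 2 kb are the same step, so 0.770 is 1 value that stands in both ranges. By groups it passed the threshold at linking gaps of 2 kb (0.770) and 5 kb (0.815) and in none of the other 22. Most of those 22 only left out 1 autosome from the pool (0.836 to 0.868). The share held by groups of 10 or more peaks depended on linking and merging. At a gap of 2 kb it was 20.9% on chromosome 16, 9.93% on chromosome 19 and 0% on chromosome 20, and after merging at 1 kb 0%, 3.39% and 0%. On chromosome 19 it was 19.4% at 5 kb, 31.9% at 20 kb and 41.6% at 50 kb. Without the fullest window of each chromosome it was 20.1%, 15.1% and 7.86%. The share of windows with a peak followed the window size. It was 56.8%, 62.0% and 42.9% at 500 kb, and at 2 Mb 92.3% on chromosome 16 and 80.0% on chromosome 20. Leaving out the longest stretches or the fullest windows, and the shares of the smaller groups and the counts per gene with their alternatives, were chosen after the data were seen. No paired analysis was possible because there is 1 library per antibody, and for the same reason none could be omitted in turn. The unknown depth sets which marked regions could be listed.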
